A study of Saccharomyces cerevisiae S288C with 6 samples.

Results

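The small (40S) ribosomal subunit of Saccharomyces cerevisiae was followed here through the 46 genes that encode its proteins outside the head and beak set of RPS3, RPS20, RPS10A, RPS10B, RPS15, RPS12, RPS31, RPS29A, RPS29B and ASC1. The genes were taken by name from the 7126 rows of the expression table, and all 46 were found. They form 22 pairs of A and B copies, the paralogs left by the whole genome duplication, plus RPS2 and RPS13, which have 1 copy each. By the position of the protein in the subunit, 34 of the 46 belong to the body and platform and 12 to the head, so the set reaches beyond the body.

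The 40S subunit binds the messenger RNA and reads its codons. Its proteins are made in the cytoplasm, enter the nucleolus and are built onto the precursor of the 18S ribosomal RNA in a fixed order, the body and platform early and the head and beak late. In growing yeast the ribosomal protein genes are transcribed at high rates under the control of Rap1, Fhl1, Ifh1 and Sfp1, and most of their A and B copies make the same or nearly the same protein at unequal levels. Ltv1 is a late assembly factor that sits on the head of the maturing subunit and leaves it before the beak takes its final form.

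Tags of the 3′ ends of polyadenylated RNA were sequenced in 3 libraries of the strain EDS615, labelled with the homozygous deletion ltv1∆/ltv1∆, and in 3 libraries of EDS76, labelled wild type, both in the S288C background. All cultures were grown in rich medium (YPD) at 30 °C and harvested at an OD600 between 0.5 and 0.6. Whether replicates came from separate cultures, and how many clones the deletion strain stands for, is not in the labels, so p-values measure only the spread between these libraries. Read counts had been divided by a size factor per library, and the values below, called normalized counts, are relative to the library: a change in total RNA per cell cannot be told apart from a change in a gene's share of it.

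The reads recovered per library came to 1077569, 1080176 and 1206279 in the libraries labelled ltv1 deletion and to 1248710, 1002573 and 1186640 in those labelled wild type. LTV1 itself had 680, 3.22 and 6.40 normalized counts in the libraries labelled ltv1 deletion 1, 2 and 3, against 29.2, 191 and 8.77 in those labelled wild type 1, 2 and 3 (log2 fold change -0.47, standard error 1.92, limma adjusted p = 0.886). The library labelled ltv1 deletion 1 thus held the most LTV1 reads, and the one labelled wild type 3 held few. Every comparison below is one of labels, and limma's counts of calls at the adjusted threshold are also given without these 2 libraries. Of the genes that mark mating type, MFA1 and MF(ALPHA)1, both of which diploids repress, did not pass 3 reads in any library. Neither did MFA2, AGA2 and MF(ALPHA)2. Other listed markers went the other way: the a-specific STE2 and STE6 and the alpha-specific SAG1 passed 3 reads in every library. BAR1 and STE3 passed 3 reads in some libraries only. These markers thus gave no uniform picture, and ploidy was not tested. The summed level of 9 haploid-specific genes was 62.1 to 89.2 normalized counts in the libraries labelled ltv1 deletion, against 93.7 to 174 in those labelled wild type. Much of that sum was STE4, with 42.0, 49.4 and 25.6 against 124, 59.4 and 87.7. NEJ1 went the other way (log2 fold change 2.22, limma adjusted p = 0.0414), and of the 5 tested 2 were above 0 and 3 below. The part of these genes in the results below was not tested.

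Copies of a pair can be counted apart only where their sequences differ. The ends of 3 pairs are shown because the results turn on these copies: each run holds the last 84 coding bases, the shorter read length in the labels, that align without a gap, in build R64, with capitals where the copies differ. Positions are chrXVI:405942-406025 (plus strand) for RPS9A, chrII:605412-605495 (plus) for RPS9B, chrV:307113-307196 (plus) for RPS24A, chrIX:231553-231636 (minus) for RPS24B, chrXV:92026-92109 (minus) for RPS19A and chrXIV:61958-62041 (minus) for RPS19B. All 6 runs lie in the last coding exon.
RPS9A: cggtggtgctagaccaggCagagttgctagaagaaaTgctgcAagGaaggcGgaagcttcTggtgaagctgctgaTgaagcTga
RPS9B: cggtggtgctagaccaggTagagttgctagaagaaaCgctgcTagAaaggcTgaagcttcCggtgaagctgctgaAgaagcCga
RPS24A: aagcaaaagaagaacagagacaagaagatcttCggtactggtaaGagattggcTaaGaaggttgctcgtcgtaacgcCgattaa
RPS24B: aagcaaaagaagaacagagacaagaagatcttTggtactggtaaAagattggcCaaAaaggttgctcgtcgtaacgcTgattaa
RPS19A: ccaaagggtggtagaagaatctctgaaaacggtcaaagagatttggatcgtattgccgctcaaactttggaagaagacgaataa
RPS19B: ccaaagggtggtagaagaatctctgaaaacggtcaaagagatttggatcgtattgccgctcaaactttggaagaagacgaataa
The RPS9 ends differ at 8 bases and the RPS24 ends at 5, while the RPS19 ends are identical.

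Over the 22 pairs, coding sequences were 84.3% to 99.2% identical, and 9 pairs encode identical proteins. RPS7A and RPS7B, at 87.9%, were the least alike as proteins. In a window from 300 coding bases before the stop to 200 bases after it, 7 of the 22 pairs shared at least 1 stretch of 84 bases. The shared part was 41.0% of the stretches in RPS6, 16.5% in RPS24 and 15.1% in RPS4, and smaller in RPS19 (3.12%) and RPS14 (2.16%). No stretch of that length was shared by RPS9A and RPS9B or by RPS0A and RPS0B. Where reads of a shared stretch went was set by the authors' counting, so values of single copies of the 7 pairs are uncertain to that extent.

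Few of the 46 genes changed past the threshold. Under the deletion label RPS9A and RPS19A rose and 0 genes fell (limma on log2(normalized count + 1), Benjamini-Hochberg adjusted p under 0.05 over 5663 genes, of which all 46 were part). The 2 higher genes are 4.35% of the 46, while 8.88% of all genes tested were called higher and 6.98% lower. The 46 log2 fold changes had quartiles of -0.05 and 0.72, with RPS9A highest at 2.05, 32 above 0 and 14 below. Their median was 0.29, against -0.02 over all genes tested, a difference that is a description and carries no test.

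The count of genes called depended on the test. At an unadjusted p under 0.05, 12 of the 46 (26.1%) were higher and 1 was lower, beside 17.8% and 16.9% of all genes. On the recovered whole reads, edgeR's quasi-likelihood test called 5 higher (RPS9A, RPS19A, RPS19B, RPS0A and RPS24B) and 0 lower, beside 10.5% and 9.25% of all genes. DESeq2 called those 5 with RPS0B and RPS6A higher and 1 gene lower, beside 11.2% and 10.1%. The values of the groups did not overlap in 14 of the 46 on the higher side (30.4%; all genes 21.6%) and in 1 on the lower side (all genes 20%). Without ltv1 deletion 1 and wild type 3 limma called 0 of the 46, beside 12 higher and 4 lower over all genes, and the median log2 fold change of the 46 was 0.48. The 2 remaining libraries of each label did not overlap in 26 of the 46 on the higher side (56.5%; all genes 30.9%) and in 1 on the lower side (all genes 30.5%).

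**Figure D1:**
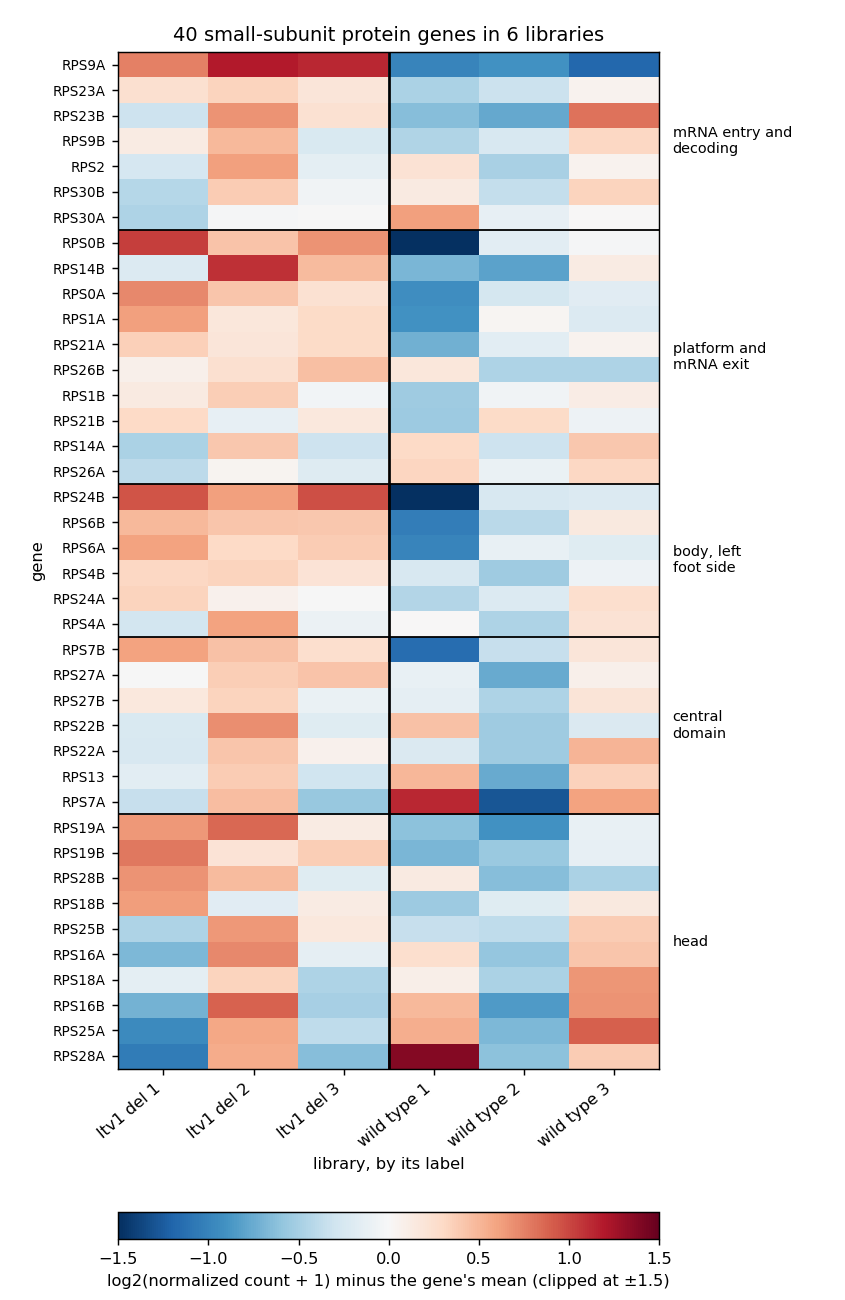
Each row is 1 of 40 of the 46 genes, each column 1 library, and colour is log2(normalized count + 1) minus the gene's mean over the 6 libraries, clipped at 1.5 either way. RPS9A is high in all 3 libraries labelled ltv1 deletion, ltv1 deletion 2 is the highest of all libraries for 20 of the 46 genes, and wild type 1 and wild type 2 are the lowest for 18 and 16.

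The proteins around the mRNA entry and the decoding site are uS5 (RPS2), uS4 (RPS9A and RPS9B), uS12 (RPS23A and RPS23B) and eS30 (RPS30A and RPS30B). RPS9A (YPL081W) had the largest change of the 46 genes. Its normalized counts were 25.2, 34.4 and 32.9 in the libraries labelled ltv1 deletion 1, 2 and 3, against 6.80, 7.29 and 5.85 in wild type 1, 2 and 3, from 24, 32 and 36 reads against 7, 7 and 6. All 3 libraries of the deletion label lie well above all 3 of the wild type label. The fitted difference was 4.14-fold on the scale of log2(value + 1), a log2 fold change of 2.05, standard error 0.23 (limma adjusted p = 0.00901). It was past the threshold in 17 of 18 settings tried and missed it without ltv1 deletion 1 and wild type 3 (log2 fold change 2.11, limma adjusted p = 0.0668). RPS9A is the minor copy of its pair. RPS9B, which makes most of the protein, had 1944, 2496 and 1527 normalized counts in ltv1 deletion 1, 2 and 3, against 1301, 1511 and 2209 in wild type 1, 2 and 3. The RPS9B groups overlap (log2 fold change 0.26).

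In the authors' deposited table RPS9A had a log2 fold change of 1.66 with an adjusted p of 0.119. Of the 38 genes of the set that carry an adjusted p in the authors' deposited table, 0 were below 0.05, beside 86 of 5472 in all its rows, and 8 had no p and were marked as outliers. The authors' fit is unlike the DESeq2 fit on recovered reads above. Its log2 fold changes for RPS9A and RPS28A were 1.66 and -0.19, against 2.22 and -0.81 in the latter. The calls of the 2 fits are thus not set at a like measure. For 25 of the 46 genes the mean that the authors' deposited table gives was over 1.5 times the mean of the 6 libraries, a difference whose source was not tested.

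RPS2, whose protein lines the entry channel, had 2433, 4426 and 2628 normalized counts in ltv1 deletion 1, 2 and 3, against 3365, 2072 and 3010 in wild type 1, 2 and 3. The groups overlap, the log2 fold change was 0.14, standard error 0.32, and its sign turned without ltv1 deletion 2 (-0.13) or without wild type 2 (-0.06). RPS23A, a copy of the gene for the decoding-site protein uS12, had 1209, 1294 and 1161 in the libraries labelled ltv1 deletion, against 738, 820 and 1062 in those labelled wild type. The groups lie apart, and the log2 fold change of 0.50 did not pass the threshold (limma adjusted p = 0.165). RPS23B had 1852, 3673 and 2692 in the libraries labelled ltv1 deletion, against 1482, 1357 and 4070 in those labelled wild type, which overlap because wild type 3 is the highest library of all. RPS30A and RPS30B, which encode a small protein near the decoding site, had log2 fold changes of -0.33 and -0.07. Over the 7 genes of the entry side the median log2 fold change was 0.26, with 5 above 0.

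The platform and the mRNA exit are formed by uS2 (RPS0), eS1 (RPS1), uS11 (RPS14), eS21 (RPS21) and eS26 (RPS26). None of these 10 genes passed limma's threshold, 8 of the 10 log2 fold changes were above 0 and their median was 0.53. RPS0A and RPS0B, whose protein is needed for the late cleavage steps that make 18S rRNA, had the clearest separation. RPS0A had 274, 222 and 195 normalized counts in ltv1 deletion 1, 2 and 3, against 86.5, 139 and 147 in wild type 1, 2 and 3. Its log2 fold change of 0.91 (standard error 0.28) was not called by limma (adjusted p = 0.0662) and was called by edgeR (adjusted p = 0.0402). RPS0B had 1344, 883 and 1043 in the libraries labelled ltv1 deletion, against 167, 587 and 646 in those labelled wild type. The RPS0B groups lie apart, but wild type 1 carries much of the size: the log2 fold change was 1.43 with all libraries (limma adjusted p = 0.0944) and 0.80 without wild type 1 (limma adjusted p = 0.10).

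RPS14A was the most abundant of the 46 genes, with a mean of 3531 normalized counts over 6 libraries. It had 2458, 4538 and 2752 in the libraries labelled ltv1 deletion, against 4187, 2746 and 4504 in those labelled wild type. These overlap fully (log2 fold change -0.25), and without ltv1 deletion 1 and wild type 3 the sign turned (0.06). RPS14B, the minor copy, whose unspliced RNA the S14 protein is known to bind in yeast, had 157, 388 and 250 in ltv1 deletion 1, 2 and 3, against 112, 103 and 196 in wild type 1, 2 and 3. Wild type 3 lies above ltv1 deletion 1, so the RPS14B groups overlap (log2 fold change 0.91, standard error 0.40, limma adjusted p = 0.148). The other 6 platform genes, RPS1A, RPS1B, RPS21A, RPS21B, RPS26A and RPS26B, ranged from -0.36 (RPS26A) to 0.72 (RPS1A) in log2 fold change, and the groups of RPS1A and RPS21A did not overlap.

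The left foot and the lower body hold, among others, eS4 (RPS4), eS6 (RPS6) and eS24 (RPS24). Over the 10 genes of this region the median log2 fold change was 0.47, with 8 above 0, and none passed limma's threshold. RPS24B had 3006, 2393 and 3040 normalized counts in ltv1 deletion 1, 2 and 3, against 366, 1322 and 1352 in wild type 1, 2 and 3. All 3 values of the deletion label lie above those of the wild type label, and wild type 1 is far below the other two. The log2 fold change was 1.69, standard error 0.50 (limma adjusted p = 0.0578; edgeR adjusted p = 0.0477), and without wild type 1 it was 1.06 (limma adjusted p = 0.0354). RPS24A had 1997, 1665 and 1587 in the libraries labelled ltv1 deletion, against 1174, 1373 and 1885 in those labelled wild type, with overlap (log2 fold change 0.27).

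The protein eS6 is the ribosomal protein phosphorylated downstream of the TORC1 growth pathway. RPS6A had 1999, 1611 and 1712 normalized counts in the libraries labelled ltv1 deletion, against 661, 1210 and 1156 in those labelled wild type. RPS6B had 781, 745 and 741 in the libraries labelled ltv1 deletion, against 271, 422 and 619 in those labelled wild type. In both copies the groups lie apart, with log2 fold changes of 0.86 and 0.87 that did not pass (limma adjusted p = 0.0813 and 0.0991), and since 41.0% of the stretches at their ends are shared, the part of the split of reads in these values was not tested. RPS4A and RPS4B, for the foot protein eS4, had log2 fold changes of 0.16 and 0.56, and the groups of RPS4B did not overlap.

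The central domain is held by uS15 (RPS13), eS7 (RPS7), uS8 (RPS22) and eS27 (RPS27). Over its 7 genes the median log2 fold change was 0.20, and 0 passed the threshold. RPS13 had 190, 277 and 172 normalized counts in ltv1 deletion 1, 2 and 3, against 299, 125 and 269 in wild type 1, 2 and 3. The groups overlap fully, and the log2 fold change of -0.05 turned its sign in 4 of the 6 fits with 1 library left out, within a range of -0.44 to 0.18. RPS7A and RPS7B encode eS7, a target of the ubiquitin ligase Not4, and their copies had log2 fold changes of opposite sign. RPS7A had 80.9, 143 and 69.5 in the libraries labelled ltv1 deletion, against 226, 41.7 and 157 in those labelled wild type, the widest scatter of the 46 genes. Its log2 fold change of -0.29 turned its sign without wild type 1 (0.20). RPS7B had 129, 115 and 101 in the libraries labelled ltv1 deletion, against 37.9, 66.7 and 96.5 in those labelled wild type, and its groups lie apart (log2 fold change 0.86, limma adjusted p = 0.126). RPS27A, the least abundant of the 46 at a mean of 15.3, had 14.7, 19.3 and 20.1 in the libraries labelled ltv1 deletion, against 13.6, 8.33 and 15.6 in those labelled wild type, with overlap. RPS22A, RPS22B and RPS27B lay between 0.16 and 0.27 in log2 fold change.

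Among the head proteins of the set are uS9 (RPS16), uS13 (RPS18), eS19 (RPS19), eS25 (RPS25) and eS28 (RPS28). The 12 head genes split evenly, 6 above and 6 below 0, with a median log2 fold change of 0.09. RPS19A and RPS19B encode eS19, the yeast counterpart of the protein most often mutated in Diamond-Blackfan anaemia, which is needed for late 40S maturation. RPS19A had 38.9, 45.1 and 26.5 normalized counts in ltv1 deletion 1, 2 and 3, against 15.5, 12.5 and 22.4 in wild type 1, 2 and 3. The groups lie apart by a small gap, between ltv1 deletion 3 and wild type 3. The log2 fold change was 1.09, standard error 0.30 (limma adjusted p = 0.0490), just past the threshold, and it passed in 9 of 18 settings, being lost when any library other than wild type 3 was left out.

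RPS19B had 145, 95.7 and 108 normalized counts in the libraries labelled ltv1 deletion, against 51.5, 56.2 and 76.0 in those labelled wild type. These groups lie apart too, with a log2 fold change of 0.91 and a standard error of 0.26 (limma adjusted p = 0.0545; edgeR adjusted p = 0.0291). The sum of RPS19A and RPS19B does not depend on how reads were split between the copies. It can depend on whether reads of shared stretches, 3.12% of the stretches in RPS19, were kept, which the sources used here do not state. The sum was 184, 141 and 134 in the libraries labelled ltv1 deletion, against 67.1, 68.7 and 98.4 in those labelled wild type (log2 fold change 0.97, standard error 0.25, limma adjusted p = 0.0404; edgeR adjusted p = 0.0202).

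RPS28A had 360, 1095 and 478 normalized counts in the libraries labelled ltv1 deletion, against 1950, 486 and 975 in those labelled wild type. RPS28B, whose mRNA the eS28 protein is known to down-regulate in yeast through the decapping factor Edc3, had 27.3, 23.6 and 14.6 in the libraries labelled ltv1 deletion, against 18.5, 10.4 and 11.7 in those labelled wild type. Both overlap between groups, at log2 fold changes of -0.76 and 0.65. The head genes RPS16A, RPS16B, RPS18A, RPS18B, RPS25A and RPS25B ran from -0.51 (RPS25A) to 0.39 (RPS18B), all with overlap.

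**Figure D2:**
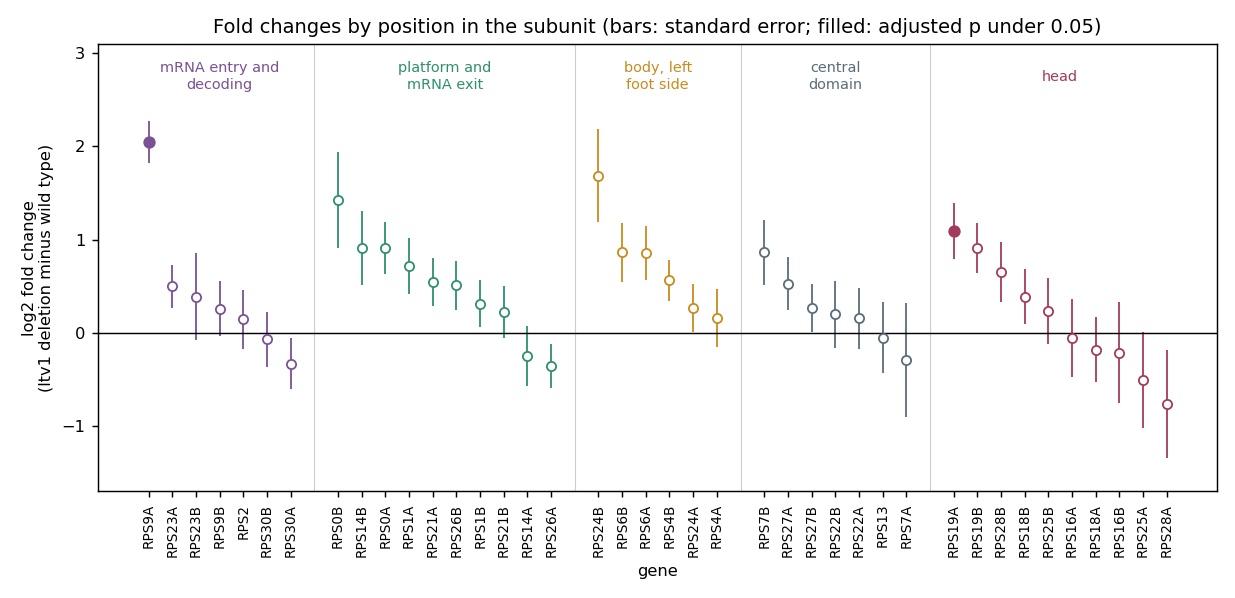
Log2 fold change (ltv1 deletion minus wild type) of 40 of the 46 genes, grouped by the position of the protein in the subunit, with bars of 1 standard error and filled points for limma adjusted p under 0.05. RPS9A at 2.05 and RPS19A at 1.09 are filled, and RPS28A at -0.76 is the lowest shown.

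Within pairs, the balance of the copies differed between labels in a few. The log2 ratio of the A copy to the B copy, with 1 added to each count, did not overlap between groups in 5 of the 22 pairs (22.7%), among them RPS9, RPS24, RPS14 and RPS26. Among 60S pairs, counted the same way, it did not overlap in 15 of 33 (45.5%), so a ratio that lies apart does not set the 40S pairs off. Each of the 5 had an exact two-sided permutation p of 0.1, the smallest that 3 against 3 libraries can give. With fewer libraries more ratios lay apart, 10 without ltv1 deletion 1 and wild type 3 and 11 without ltv1 deletion 2 or without wild type 2.

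RPS9A made up 1.28%, 1.36% and 2.11% of the RPS9 counts in ltv1 deletion 1, 2 and 3, against 0.520%, 0.480% and 0.264% in wild type 1, 2 and 3. The log2 ratio of RPS9A to RPS9B changed by 1.79, while the sum of the pair had a log2 fold change of 0.27, so the change of RPS9A hardly touched the pair as a whole. RPS24A made up 39.9%, 41.0% and 34.3% of RPS24 in the libraries labelled ltv1 deletion, against 76.2%, 50.9% and 58.2% in those labelled wild type. In RPS24 the B copy holds the larger part in all libraries labelled ltv1 deletion, and the A copy does so in all libraries labelled wild type. The log2 ratio of RPS24A to RPS24B changed by -1.42.

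RPS14B made up 5.99%, 7.88% and 8.34% of RPS14 in the libraries labelled ltv1 deletion, against 2.60%, 3.62% and 4.17% in those labelled wild type. RPS26B made up 3.28%, 2.72% and 3.71% of RPS26 in the libraries labelled ltv1 deletion, against 2.16%, 1.85% and 1.40% in those labelled wild type. Both are minor copies with a larger share under the deletion label. In RPS7 and RPS28 the ratio changed by a similar size (-1.16 and -1.41), but the groups overlapped and the exact permutation p was 0.3 and 0.2. The share of RPS28B, to which nothing is added, lay just apart, at 2.11% in ltv1 deletion 2 against 2.10% in wild type 2. In 16 of the 22 pairs the minor copy had the higher log2 fold change, as it did in 22 of 33 60S pairs.

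**Figure D3:**
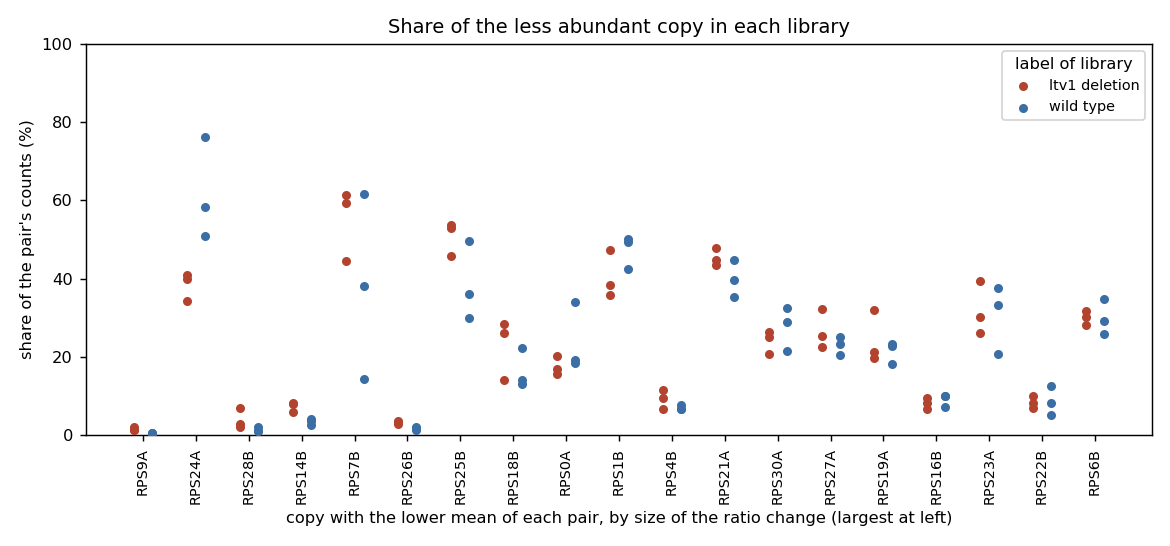
Share of each pair's normalized counts held by the copy with the lower mean, in percent, in the 3 libraries labelled ltv1 deletion (left of each pair of columns) and the 3 labelled wild type (right), for 19 of the 22 pairs, ordered by the size of the change in copy ratio. RPS24A lies lower under the deletion label, and RPS9A, RPS14B and RPS26B lie higher although their shares are under 10%. RPS28B lies higher by a very small gap (2.11% against 2.10% at the closest).

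With the copies of each pair added, 24 sums and single genes remained. Only RPS19 passed the threshold, beside 15.9% of the 5606 features called in either direction in the same fit. The sums of 6 pairs lay apart between groups, all on the higher side (25% of the 24, beside 21.4% of all features in that fit), among them RPS0, RPS1, RPS6, RPS19 and RPS24. Of these, RPS0 summed to 1321 ± 266 under the deletion label and 591 ± 294 under the wild type label (SD, n = 3 each), a log2 fold change of 1.31. RPS24 summed to 4563 ± 476 under the deletion label and 2490.4 ± 866 under the wild type label (SD, n = 3 each), a log2 fold change of 0.94. Wild type 1 lay lowest in both sums. The RPS0 sum was 254, 726 and 793 in wild type 1, 2 and 3, and the RPS24 sum 1540, 2694 and 3237. The median over the 24 was 0.17, with 15 above 0 (at an unadjusted p under 0.05, 4 higher and 0 lower). Without ltv1 deletion 1 and wild type 3 no sum passed, and that of RPS19 missed the threshold when any library other than wild type 3 was left out.

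**Figure D4:**
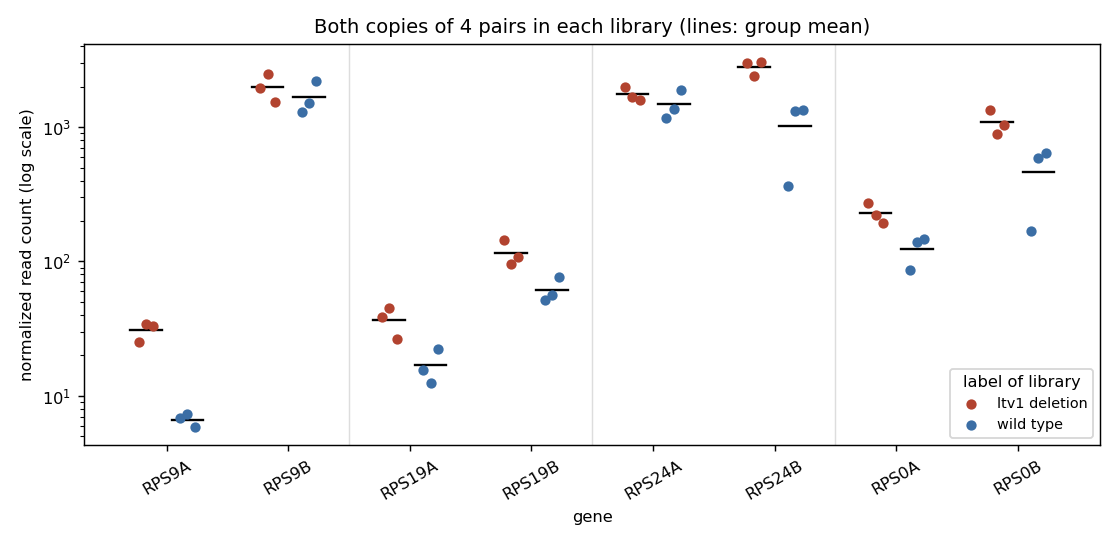
Normalized counts, on a log scale, of both copies of the RPS9, RPS19, RPS24 and RPS0 pairs in each library, with ltv1 deletion left of wild type and a line at the mean of the 3. RPS9A and RPS19A are separated between labels, and RPS9B and RPS24A overlap.

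The libraries of 1 label differed from each other by more than the labels did. The 46 genes took 3.60%, 4.91% and 3.85% of the signal in ltv1 deletion 1, 2 and 3, against 3.39%, 3.22% and 4.41% in wild type 1, 2 and 3. The means were 4.12% ± 0.698 and 3.67% ± 0.644 (SD, n = 3 each), which did not differ beyond that spread (exact two-sided permutation test, p = 0.5). The order is ltv1 deletion 2, wild type 3, ltv1 deletion 3, ltv1 deletion 1, wild type 1 and wild type 2, so the labels interleave.

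The genes varied within labels too. In 29 of the 46 (63.0%) ltv1 deletion 2 lay above ltv1 deletion 1 and 3, as it did in 31.7% of all genes tested, and in 26 of the 46 (56.5%) wild type 2 lay below wild type 1 and 3, against 32.5% of all genes. Wild type 1 was the lowest of the 6 libraries in 18 of the 46 (39.1%), against 28.4% of all genes. It stood low in the foot and platform genes, by -0.56 and -0.55 on average from the gene means on the log2 scale, but at 0.06 and 0.07 in the head and central domain. In wild type 1 the most abundant transcript, TDH3, held 5.66% of reads, and in the other libraries 1.33% to 2.88%, and the part of this in the values of wild type 1 was not tested. The pooled SD of log2 values within labels had a median of 0.40 over the 46 genes and of 0.35 over all genes. Among genes with a mean of at least 100 it was 0.41 for 37 genes of the set and 0.31 for all 2089.

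Beside the 46 genes, the head and beak proteins showed 0 calls among 10, a median log2 fold change of -0.20 and 4 above 0, and the median turned to 0.27 without ltv1 deletion 1 and wild type 3. Of 81 large-subunit (60S) proteins 6 rose and 1 fell, beside 8.88% of all genes called higher and 6.98% called lower. Their median log2 fold change was 0.33. The 16 genes listed here as late 40S assembly factors differed more. Of these 14 rose, beside 8.88% of all genes called higher, and the median of the 16 was 1.70. Among the 14 were the endonuclease NOB1, which makes the final 18S cut (2.54), TSR1 (2.45) and ENP1 (2.44). The count depended on the libraries. It was 1, 1 and 0 without ltv1 deletion 1, 2 or 3, and 9 without wild type 3. Genes called higher over all genes fell as well, from 503 to 89, 105 and 20, and to 338 without wild type 3. The median of the 16 was 1.72, 1.61 and 1.72 without ltv1 deletion 1, 2 or 3. Without ltv1 deletion 1 and wild type 3 the count was 0, beside 12 called higher over all genes. In that fit the median was 1.82 and 15 of 16 were above 0. The 60S proteins had 0 calls without those 2 libraries, and 0, 1 and 0 without ltv1 deletion 1, 2 or 3. Their lists were chosen with earlier results of these data known, and no test of the difference between lists was made.

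**Figure D5:**
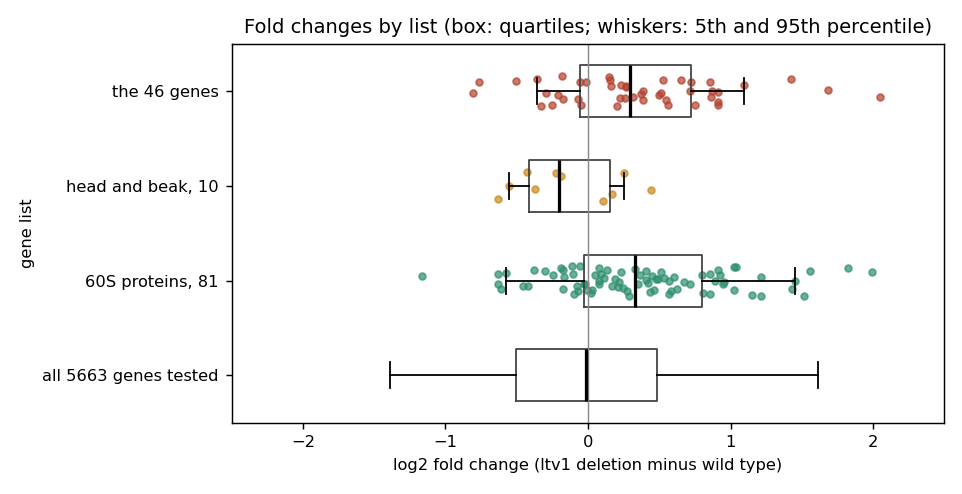
Log2 fold changes (ltv1 deletion minus wild type) of the 46 genes, the 10 head and beak proteins, the 81 large-subunit proteins and all 5663 genes tested, with boxes at the quartiles, a line at the median and whiskers at the 5th and 95th percentile. The 46 genes centre at 0.29 and the head and beak proteins at -0.20 (0.27 without ltv1 deletion 1 and wild type 3), both inside the range of all genes.

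Of 12 regulators of ribosomal protein genes, 2 rose, TOD6 and HMO1, beside 8.88% of all genes called higher. TOD6 is a repressor that binds the PAC motif of ribosome assembly genes (log2 fold change 2.74, limma adjusted p = 0.0227). It had 52.6, 64.5 and 41.1 normalized counts in the libraries labelled ltv1 deletion, against 1.94, 14.6 and 9.75 in those labelled wild type. The TOD6 value in wild type 1 lies under the worth of 3 reads there, 2.92. HMO1 is a high mobility group protein found at ribosomal protein promoters (log2 fold change 1.25, limma adjusted p = 0.0428). None of the 12 passed without ltv1 deletion 1 and wild type 3, nor when any 1 library labelled ltv1 deletion was left out. In those fits fewer genes were called higher over all genes too. The counts were 12 without ltv1 deletion 1 and wild type 3, and 89, 105 and 20 without ltv1 deletion 1, 2 or 3. FHL1, which marks these promoters, had 1.16 and its coactivator IFH1 1.01, both just short of the threshold (limma adjusted p = 0.0508 and 0.0549). RAP1, the general factor of these promoters, had 0.07, and SFP1, which carries nutrient signals to them, had -0.73.

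In the 500 bases before the start codon, the Rap1 letters ACCCNNACA, read on both strands, were found in 15 of the 46 genes (32.6%), against 5.46% of 6005 protein-coding genes. The 19 matches lay 230 to 498 bases before the start codon, with a median of 342. Examples with 10 bases on either side and the letters in capitals, from build R64, are those before RPS2 (chrVII:277219-277247, plus strand), RPS19A (chrXV:93078-93106, minus) and RPS24A (chrV:305977-306005, plus), shown because RPS2 has 1 copy and the other two have a copy without these letters.
RPS2: tttaagctagACCCATACAcccgctctat
RPS19A: cgttcgttcaACCCGTACAtttatataaa
RPS24A: gggactgtacACCCACACAtttacaagcc
No match to these letters lay in the same window of RPS19B, RPS24B, RPS9A or RPS9B. The median log2 fold change was 0.39 in the 15 genes with a match and 0.27 in the 31 without. The Fhl1 letters GACGCA were found in 4 of the 46 (8.70%; 10.9% of all) and the PAC letters GATGAG in 8 (17.4%; 28.2% of all).

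An intron was annotated in 34 of the 46 genes (73.9%), against 5.48% of protein-coding genes. The median log2 fold change was 0.39 in the genes with an intron, 25 of 34 above 0, and 0.15 in those without, 7 of 12 above 0. RPS22B was the only gene of the set that another annotated gene overlaps, a small nucleolar RNA gene in its intron. The nearest gene beyond the 3′ end was convergent in 29 of the 46. Beyond RPS9A, YPL080C begins 128 bases after the coding end on the other strand and had at most 1.07 normalized counts in any library, so few reads were counted there.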

How the data were processed

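Tags of the 3′ ends of polyadenylated RNA were counted in 6 yeast libraries. STAR and Salmon, after FastQC and Trim Galore, and then R 4.1.3 with DESeq2 1.34.0 are named in the submitters' processing notes, as is build R64. For strand and for molecular identifiers the settings are not stated in the sources used here. The authors deposited 1 table with a normalized signal per gene and library, log2 fold changes and p-values. All values above 0 in each library's deposited signal (100%, within 0.01) were whole multiples of a step of 0.914 to 1.07, the worth of 1 read, as counts divided by a size factor give, so whole reads were recovered. A floor of 3 reads is worth 2.74 to 3.22 normalized counts and covers counting error only. The lowest value among the 46 genes came from 6 reads.

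Groups came from the labels. Since the table holds scaled values, limma 3.58.1 (R 4.3.3; no trend, no robust option) was fitted to log2(value + 1) of the 5663 genes with a mean of at least 5, with Benjamini-Hochberg adjustment and a threshold of 0.05. The pseudocount understates the change of low genes. edgeR 4.0.16 and DESeq2 1.42.0 on recovered reads, other pseudocounts, filters and scalings, the replicate number as a block and fits without single libraries were alternatives. Over all 5663 genes edgeR called 597 higher and 524 lower. The procedure was tested on simulated data. The genes and lists were chosen with earlier results of these data known. Named with values in every library are genes past the threshold, RPS2 and RPS13, the 3 largest fold changes per position in the subunit, both copies of the 6 pairs with the largest ratio change, and the highest and lowest gene. The single values of some genes that this rule names, and of others of the set, are not reported here, while counts and medians cover all 46. Sequences and coordinates (1-based) are from the R64 reference genome.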

Additional observations from a re-analysis of the deposited data

How the results depend on the processing

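The median log2 fold change of the 46 genes stayed between 0.20 and 0.48 in every setting, and the share of signal kept its direction (difference 0.05 to 0.82 percentage points with 1 library left out, 1.08 without ltv1 deletion 1 and wild type 3). The count called higher, 2, became 1 with a pseudocount of 0.5, without a filter or with the replicate block, 3 at a mean of at least 50 (RPS0A, RPS24B and RPS19B, since RPS9A and RPS19A lie under that mean), 5 with a pseudocount of 5, with edgeR or with limma's trend, 7 with DESeq2, 8 at an adjusted p of 0.1, 0 without ltv1 deletion 1 and wild type 3, and 1 to 2 with 1 library left out. The count called lower, 0, became 1 with DESeq2 and 0 to 1 with 1 library left out (1 without wild type 2). The pair sums called, 1, became 0 without a filter, with the replicate block or without those 2 libraries, 2 at a mean of at least 50, 4 with DESeq2 and at an adjusted p of 0.1, and 0 to 1 with 1 library left out. Pairs with copy ratios apart, 5, became 10 without those 2 libraries and 6 to 11 with 1 library left out, the highest without ltv1 deletion 2 or wild type 2. These fits hold fewer libraries, and groups of fewer libraries lie apart more often. The cause of the other changes was not tested.

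Of the named genes' 433 alternative values, 386 kept their direction and side of the threshold, 10 fell short of it, 27 passed it and 10 turned their sign. With 1 library left out, RPS2 ran from -0.13 to 0.31, RPS13 from -0.44 to 0.18 and RPS7A from -1.01 to 0.20. Without ltv1 deletion 1 and wild type 3, RPS13 had 0.17, RPS7A 0.032 and RPS14A 0.059. Same-numbered libraries of the groups did not deviate together over all genes (r = -0.11, -0.20 and 0.07), so the numbers do not pair the libraries. The block lowered the calls over all genes to 279 higher and 151 lower, against 503 and 395. With 3 libraries a label and a median spread of 0.40 on the log2 scale, a gene that did not pass is not shown to be unchanged.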
